A study of Homo sapiens with 12 samples.

Results

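The ENPP2 locus was taken as every H3K9ac region on chromosome 8 between positions 119500000 and 119750000 of the hg38 genome, which gave 12 of the 47648 regions in the deposited table. Regions were chosen by position alone, but the window itself was proposed because ENPP2 regions had been lower after treatment in these same libraries. Every difference between treated and control libraries at ENPP2 is therefore given as a description. Counts of ENPP2 regions past a threshold in the fit over all regions are printed only beside the same share over all regions or for other settings, and no finding rests on them. MOLM-13, a human acute myeloid leukaemia line that carries the KMT2A-MLLT3 fusion gene and a tandem duplication inside FLT3, was profiled by chromatin immunoprecipitation sequencing for acetylated lysine 9 of histone H3 (H3K9ac). Control cells received DMSO, the solvent (3 libraries), and treated cells 4 µM WM-1119, an inhibitor of the histone acetyltransferase KAT6A, for 4 days (3 libraries). All libraries come from this 1 cell line, which is known to carry extra copies of chromosome 8. Whether replicates came from separate cultures is not in the labels, so their spread may be technical. No use was made of the 6 input samples, so neither copy number nor local background was measured from input.

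ENPP2 encodes autotaxin, a secreted lysophospholipase D that turns lysophosphatidylcholine into lysophosphatidic acid. That lipid signals through a family of G protein-coupled receptors (LPAR1 to LPAR6) to the small GTPase RhoA and other carriers, and is cleared at the cell surface by lipid phosphate phosphatases. Autotaxin is known for roles in cell migration, vessel development and lymphocyte homing. H3K9ac marks active promoters and enhancers.

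The unit is CPM, a region's reads per 1000000 reads in all listed regions, so a shift shared by every region would not show. Region reads numbered 719329 in DMSO replicate 1, 1298443 in DMSO replicate 2, 7481101 in DMSO replicate 3 and 4542323 to 12705350 in the WM-1119 libraries. The chromosome 8 background, estimated as the 10th percentile of CPM per kb over mid-sized chromosome 8 regions, was 20.5, 17.0 and 5.24 CPM per kb in DMSO replicates 1, 2 and 3 and 5.44 to 8.30 in the WM-1119 libraries. DMSO replicates 1 and 2 thus stood apart in both depth and background, and results that rest on them are also given without them. As a check of the label, 6 of 8 myeloid or leukaemia genes had a region with a mean of at least 10 CPM at a gene end. CD33 and MPO lay below that mean. Of 8 genes of other cell types only PECAM1 reached it.

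The 12 regions formed a cluster of 7, a pair, a single region and 2 separate outer regions, and none lay at an annotated end of ENPP2. The gene body runs from 119557086 to 119673390, with 10 regions inside it and 2 beyond its higher end. No region lay within 1 kb of either end, so no region could be taken as the promoter at the annotated end. The region nearest to the higher end, which a non-coding gene, LOC105375727, spans from 119671948 to 119675343, was 15469 bp away. Starts of individual transcripts, exons and introns were not used here. Whether any of the 10 regions inside the gene body lies at a transcript start was therefore not determined. A cluster of 7 regions spanned 7645 bp from 119636863 to 119644507. A pair 30 bp apart lay at 119601197 to 119602154, a single region at 119650473 to 119651214, and the 2 outer regions at 119688859 to 119689068 and 119698285 to 119698520. In coordinate order, with strand not used, the lowest 44111 bp of the gene body held no region. The regions were 167 to 1792 bp wide, with a median of 464 bp against 401 bp over the whole table.

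**Figure D1:**
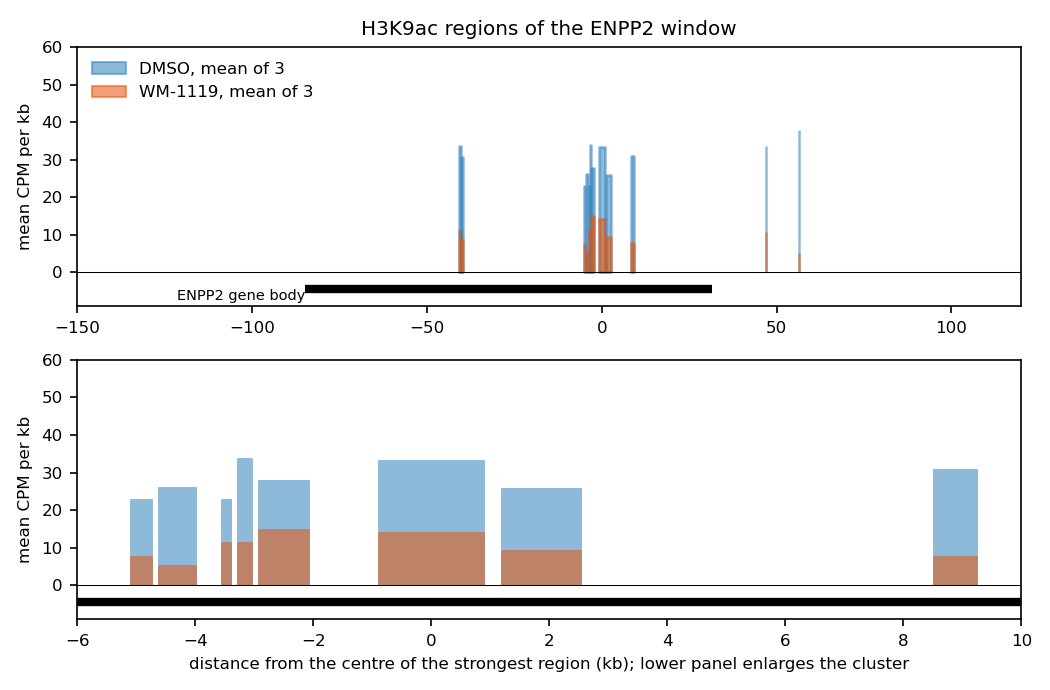
Mean CPM per kb of each region in DMSO (blue, 3 libraries) and WM-1119 (orange, 3 libraries) against distance from the centre of the strongest region in kb, with the gene body as a black bar and region widths to scale. All 12 WM-1119 means lie below the DMSO means, and no region stands at either end of the gene body.

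The strongest region lay in the middle of the cluster, at 119641076 to 119642867. It held 76.5, 58.5 and 44.9 CPM in DMSO replicates 1, 2 and 3 and 35.7, 19.1 and 21.4 CPM with WM-1119 replicates 1, 2 and 3. Every WM-1119 library was below every DMSO library, with means of 59.97 ± 15.8 and 25.4 ± 8.97 CPM (SD, n = 3 each). Its log2 change, WM-1119 minus DMSO on log2(CPM + 1), was -1.23 ± 0.22 (limma SE). The narrowest gap was between DMSO replicate 3, with 336 reads, and WM-1119 replicate 1, with 162. Their exact Poisson 95% intervals, which cover counting error only, were 40.2 to 49.98 and 30.4 to 41.6 CPM. The intervals overlapped, which is not a test of the difference. This region ranked first of the 12 by CPM in each of the 6 libraries, with a mean of 42.7 CPM. Per kb of width its rank was 6, 5 and 1 in DMSO replicates 1, 2 and 3 and 3, 2 and 1 in WM-1119 replicates 1, 2 and 3. In DMSO replicate 1 the regions above it were narrower than it and held 10 to 29 reads.

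The next region of the cluster, at 119643161 to 119644507, held 48.7, 37.7 and 18.4 CPM with DMSO and 16.3, 9.40 and 12.3 CPM with WM-1119. The groups again did not overlap, but DMSO replicate 3 lay nearer to WM-1119 replicate 1 than to the other DMSO libraries. The log2 change was -1.32 ± 0.29 (SE), and -0.54 against DMSO replicate 3 alone. On the other side of the strongest region, that at 119639027 to 119639893 held 34.8, 25.4 and 12.4 CPM with DMSO and 19.4, 11 and 8.50 CPM with WM-1119. Here the groups overlapped, with WM-1119 replicate 1 above DMSO replicate 3, and the log2 change of -0.82 ± 0.32 (SE) was the smallest of the 12. Against DMSO replicate 3 alone it was -0.02.

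The largest log2 change, -2.16 ± 0.48 (SE), was that of the region at 119637334 to 119637978. It held 22.2, 19.3 and 9.09 CPM with DMSO and 7.49, 1.00 and 2.13 CPM with WM-1119. WM-1119 replicates 2 and 3 were far below the rest, while WM-1119 replicate 1 was close to DMSO replicate 3. Those close values rested on 34 and 68 reads, with exact Poisson 95% intervals of 5.18 to 10.5 and 7.06 to 11.5 CPM. The adjacent region at 119636863 to 119637232 was low in the same libraries, with 1.2 and 1.18 CPM with WM-1119 replicates 2 and 3 against 6.16 CPM with WM-1119 replicate 1 and 5.08 to 11.1 CPM in DMSO. The 2 remaining regions of the cluster were narrow and weak. That at 119638404 held 2.54 to 6.16 CPM with DMSO and 0.472 to 4.40 CPM with WM-1119, and that at 119638672 held 2.41 to 13.9 and 1.90 to 4.84 CPM, so both overlapped between groups.

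Outside the cluster lay 5 regions. In the single region at 119650473 DMSO replicates 1, 2 and 3 held 40.3, 18.5 and 9.89 CPM and WM-1119 replicates 1, 2 and 3 held 8.15, 4.6 and 4.80 CPM. The groups did not overlap, and the log2 change was -1.63 ± 0.40 (SE), or -0.71 against DMSO replicate 3 alone. The pair at 119601197 to 119602154 summed to 45.9, 32.3 and 11 CPM with DMSO and 13.0, 6.90 and 7.95 CPM with WM-1119. WM-1119 replicate 1 was thus above DMSO replicate 3 in this sum. The groups overlapped in the first region of the pair, where DMSO replicate 3 at 4.68 CPM was below WM-1119 replicate 1 at 6.82 CPM, and narrowly did not in the second, at 6.28 and 6.16 CPM. Their log2 changes were -1.21 ± 0.46 and -1.45 ± 0.45 (SE), and 0.01 and -0.47 against DMSO replicate 3 alone. Of the 2 outer regions, that at 119688859 held 8.34, 10.0 and 2.81 CPM with DMSO and 1.34 to 3.30 CPM with WM-1119, and that at 119698285 held 18.1, 6.16 and 2.54 CPM with DMSO and 0.300 to 2.64 CPM with WM-1119. The highest of these values, 18.1 CPM in DMSO replicate 1, rested on 13 reads.

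**Figure D2:**
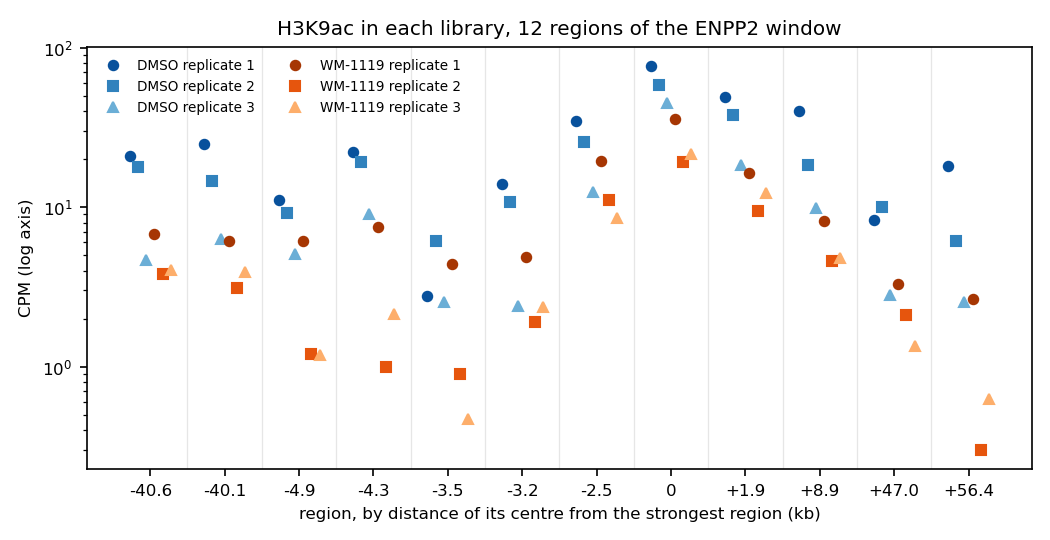
CPM on a log axis for the 12 regions in each of the 6 libraries, with regions ordered by the distance of their centre from the strongest region in kb (blue: DMSO, orange: WM-1119, 1 symbol per replicate). DMSO replicate 3 is the lowest DMSO library and WM-1119 replicate 1 the highest WM-1119 library in all 12 regions, and the groups do not overlap in 5.

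All 12 regions had a log2 change below 0, beside 77.2% of all tested regions and 86% of the other chromosome 8 regions, with values from -2.16 to -0.82 and a median of -1.27. The median over all 44763 tested regions was -0.47 and that over the other 2071 tested chromosome 8 regions -0.76. In limma's fit over all regions 3 of the 12 were lower at an adjusted p under 0.05, beside 0.0603% of all tested regions (27, with 0 higher; 2.58% were higher at an unadjusted p under 0.05) and 0.29% of the other chromosome 8 regions. They were those at 119637334, 119641076 and 119643161, and since this contrast chose the window nothing is read from the count. Groups did not overlap in 5 of the 12, beside 13.2% of all tested regions and 11.1% of the other chromosome 8 regions. Without DMSO replicates 1 or 2, or WM-1119 replicates 2 or 3, none of the 12 passed in limma, beside 3, 0, 4 and 6 of all tested regions. In the same fits 7, 7, 6 and 7 of the 12 were lower at an unadjusted p under 0.05. Over all 44763 tested regions 2052, 1635, 1617 and 1422 were lower at that p. With DMSO replicate 3 left out 11 passed, beside 17228 lower and 2409 higher of all 44763 tested regions. Without WM-1119 replicate 1 the count stayed at 3, beside 33 over all tested regions. With DMSO replicates 1 and 2 both left out, the lone DMSO library is assumed to vary like the treated ones. In that fit 10 of the 12 were below 0, and the median was -0.53 beside 0.08 over all tested regions. The strongest region was at -0.85 ± 0.28 and that at 119637334 at -1.43 ± 0.87 (log2 change, SE).

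The split of calls over all regions depended on scaling: median centring of each library called 0 lower and 2 higher, and subtraction of a background per library and chromosome called 61 lower and 31 higher. Median centring moved the median of all tested regions from -0.47 to 0.30. The 12 regions were still all lower there, with a median of -0.50, and 0 passed in limma. At an unadjusted p under 0.05, 5 of the 12 were lower, beside 557 lower and 4369 higher of all 44763 tested regions.

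Summed over the window, the libraries did not separate by treatment. The 12 regions together held 323, 234 and 121.1 CPM in DMSO replicates 1, 2 and 3 and 121.3, 58.4 and 63.0 CPM with WM-1119 replicates 1, 2 and 3. DMSO replicate 3 and WM-1119 replicate 1 were level, and the group means were 226 ± 101 and 80.9 ± 35.0 CPM (SD, n = 3 each). The log2 change of the sum was -1.44 ± 0.53 (SE), and it was -0.66 against DMSO replicate 3 alone. The cluster took 65.1% to 78.4% of the sum in the 6 libraries, with the lowest share in DMSO replicate 1. The order of levels along the locus was alike between libraries: over the 12 regions, Pearson correlations of log2(CPM + 1) between pairs of libraries ran from 0.764 to 0.969. The regions share their widths in every library, so these correlations are a description. The strongest region alone took 23.7%, 25% and 37.1% in DMSO and 29.4%, 32.7% and 34.0% in WM-1119.

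Ratios within a library do not depend on its total. With no region at either end of the gene body to serve as the base, each region was set against the strongest one. Whether that region lies near a transcript start was not determined. The region at 119637334 stood at 29.1%, 32.9% and 20.2% of the strongest region in DMSO and at 21.0%, 5.24% and 9.93% in WM-1119. It was thus low against its own neighbour in WM-1119 replicates 2 and 3, while WM-1119 replicate 1 was level with DMSO replicate 3. The region at 119639027 stood at 45.5%, 43.4% and 27.7% in DMSO and 54.3%, 57.6% and 39.7% in WM-1119, with groups that overlapped. For the region at 119650473 the value was 52.7% in DMSO replicate 1, 31.6% in DMSO replicate 2 and 22.0% to 24.1% in the other 4 libraries. The 2 libraries of low depth and high background thus stood above the other 4 in this ratio.

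Background moved with these results. Per kb, the strongest region stood at 2.08, 1.93 and 4.78 times the chromosome 8 background of its own library in DMSO replicates 1, 2 and 3 and at 2.40, 1.78 and 2.20 times in WM-1119. DMSO replicate 3 was thus well above the other 5 libraries, while DMSO replicates 1 and 2 lay within the range of WM-1119. The region at 119637334 stood at 1.68, 1.76 and 2.69 times background in DMSO and at 1.40, 0.259 and 0.606 times in WM-1119. In WM-1119 replicates 2 and 3 it was below the background level, as were 4 of the 12 regions in each of these 2 libraries. All 12 were above it in WM-1119 replicate 1, DMSO replicate 2 and DMSO replicate 3, and 11 in DMSO replicate 1.

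With the background times the width taken off, the strongest region kept 39.8, 28.1 and 35.5 CPM with DMSO and 20.8, 8.39 and 11.7 CPM with WM-1119. The group means were 34.5 ± 5.89 and 13.6 ± 6.43 CPM (SD, n = 3 each), and the groups did not overlap. Values here were not rescaled to the CPM that remained over all regions. That was 63.3%, 66.3% and 85.9% in DMSO replicates 1, 2 and 3 and 80.8% to 84.5% with WM-1119. The spread among the DMSO libraries therefore also rests on this choice of scale. The region at 119643161 kept 21.1, 14.9 and 11.4 CPM with DMSO and 5.11, 1.35 and 4.95 CPM with WM-1119. For the whole window the remaining sums were 168, 106 and 81.4 CPM with DMSO and 58.5, 13.2 and 21.9 CPM with WM-1119, so the groups separated where the unadjusted sums had not. The ratio of the group means of the sum was 3.79 after the subtraction and 2.79 before it. The part that unequal depth plays in these differences was not tested.

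**Figure D3:**
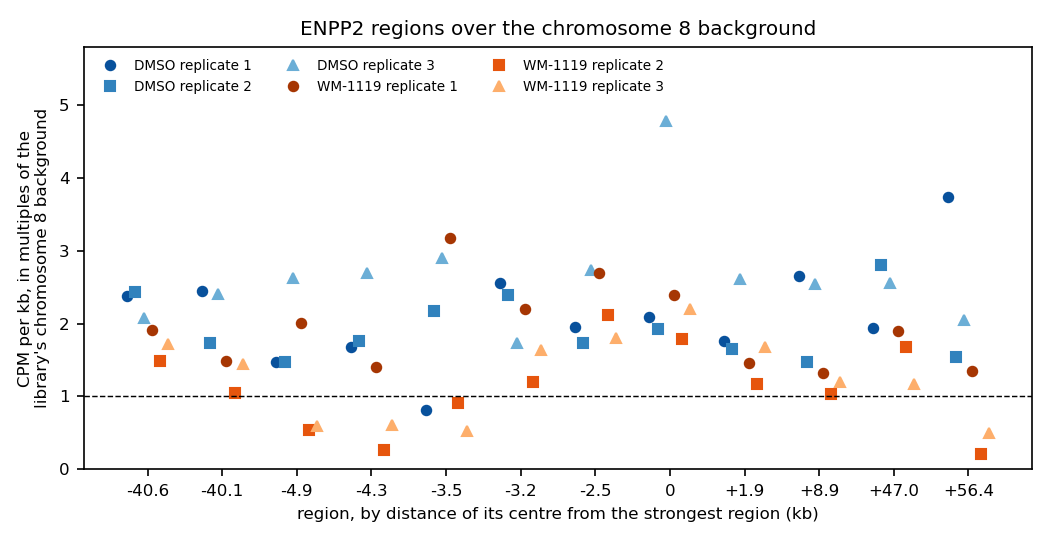
CPM per kb of each region divided by the chromosome 8 background of the same library, in 6 libraries (blue: DMSO, orange: WM-1119), with regions ordered by distance from the strongest one in kb and the background drawn as a dashed line at 1. The strongest region reaches 4.78 in DMSO replicate 3 and 1.78 to 2.40 in the other 5 libraries.

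Most weak chromosome 8 regions were lower in WM-1119 as well, and the ENPP2 regions were set beside those of the same level. For each of the 12, the other tested chromosome 8 regions with a mean within 1.2-fold were taken (46 to 330 regions). Their median log2 changes ran from -1.01 to -0.41. The ENPP2 region was below that median in 11 of the 12 and below the lower quartile in 8, by a median of -0.51. At the level of the strongest region the 46 others had a median of -0.41 (quartiles -0.69 and -0.10), and none changed by as much as its -1.23. At the level of the region at 119637334 the 170 others had a median of -0.93 (quartiles -1.14 and -0.70), and again none was as low. The regions at 119643161 and 119650473 had 2 of 86 and 2 of 134 others as low. In contrast, the region at 119638404 lay at the median of its 283 counterparts, and those at 119638672, 119639027 and 119688859 lay between the median and the lower quartile. With DMSO replicate 3 as the only control the matched chromosome 8 medians were above 0, from 0.13 to 0.31, and all 12 regions were below theirs, by a median of -0.75.

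**Figure D4:**
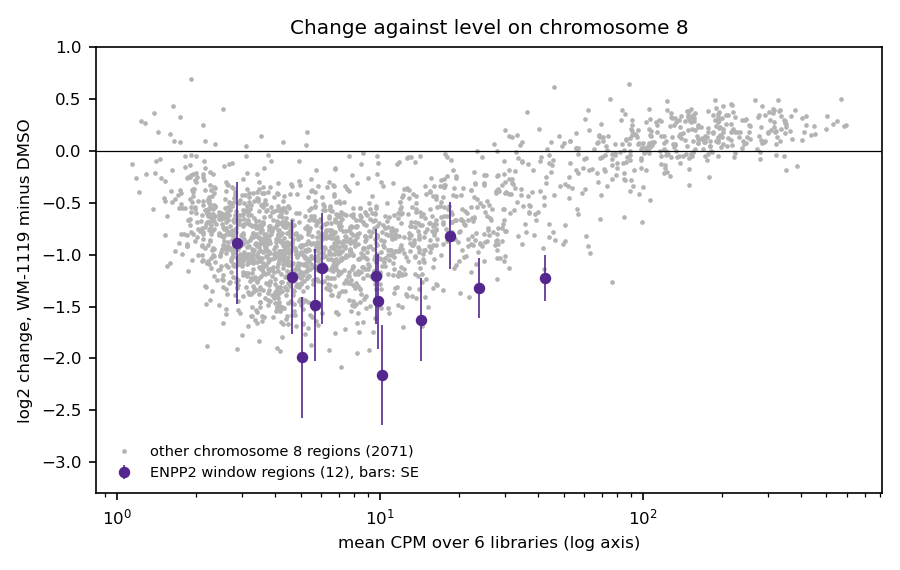
Log2 change, WM-1119 minus DMSO, against the mean CPM over 6 libraries (log axis) for the 12 ENPP2 window regions (purple, bars: SE) and the other 2071 tested chromosome 8 regions (grey). The grey cloud lies mostly below 0 at low means and near 0 at high means, and the strongest ENPP2 region, at 42.7 CPM and -1.23, lies at its lower edge.

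No end region of the genes on either side of ENPP2 was called, beside 0.0603% of all tested regions, so nothing is read from that count. Level also differed: the listed neighbour genes had a median mean of 77.3 CPM and the window regions 9.75 CPM. On chromosome 8 the median log2 change was -0.94 for regions averaging 5 to 10 CPM and -0.05 for those averaging 50 to 100 CPM. The comparison with neighbours therefore moves with level. At the end of TAF2, a subunit gene of the general transcription factor TFIID, the region at 119832046 to 119833422 held 75.1, 94.7 and 117 CPM with DMSO and 108, 122 and 123 CPM with WM-1119. The end region of DSCC1, a gene of sister chromatid cohesion, held 130 ± 14.0 and 133 ± 5.78 CPM (SD, n = 3 each), and that of DEPTOR, an inhibitor of mTOR signalling, 120 ± 13.9 and 121 ± 4.5 CPM (SD, n = 3 each). CCN3, a matricellular protein gene and the nearest coding gene below ENPP2 in coordinate, held 36.1, 42.4 and 30.2 CPM with DMSO and 25.8, 26.9 and 27.4 CPM with WM-1119, which did not overlap (log2 change -0.42 ± 0.23, SE; limma adjusted p = 0.389). Against DMSO replicate 3 alone its log2 change was -0.17. Of 14 neighbour genes listed by position 12 had a tested region, 10 distinct regions in all; 0 of the 12 genes passed in limma (1 at an unadjusted p under 0.05, the syntrophin gene SNTB1, which was higher). The closest regions outside the window, at 119470378 and at 119831490 inside TAF2, had log2 changes of -1.33 ± 0.58 and -1.04 ± 0.45 (SE), and of -0.17 and -0.09 against DMSO replicate 3 alone. Of the other weak regions nearby, that at 119833554 was at 0.43, and that at 119863081 at -0.63, or 0.74 against DMSO replicate 3 alone. Within 1 Mb of either side of the window 19 of 24 tested regions had a log2 change below 0, the median was -0.69, and none passed in limma.

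**Figure D5:**
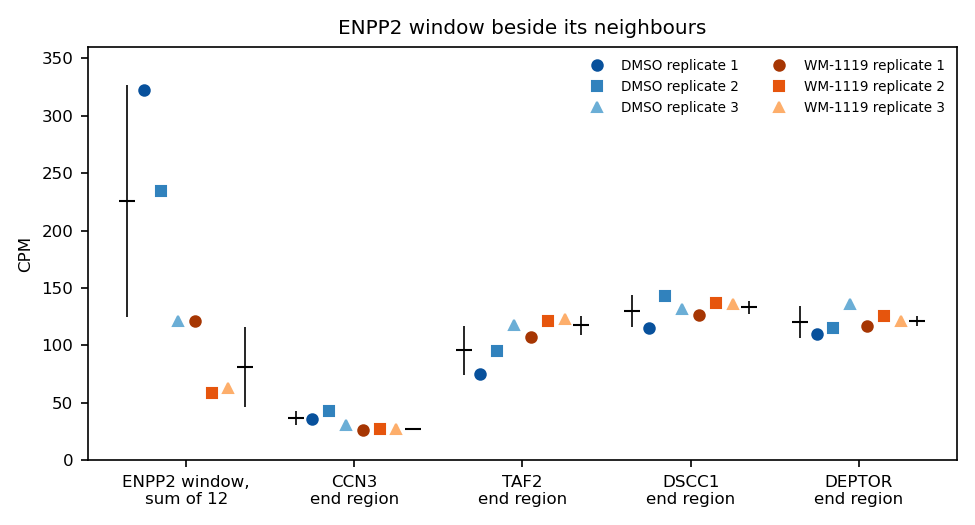
CPM of the ENPP2 window (sum of 12 regions) and of the end regions of 4 neighbour genes in each library (blue: DMSO, orange: WM-1119), with black bars for the mean and SD of each group. The window sum runs from 323 down to 121.1 CPM with DMSO and from 121.3 down to 58.4 CPM with WM-1119, while the mean of DSCC1 is 130 and 133 CPM and that of DEPTOR 120 and 121 CPM. Apart from the strongest, each of the 12 summed regions has a lower mean than any of these end regions.

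Elsewhere in the genome, no region of the lysophosphatidic acid pathway was called, and with so few calls over all regions nothing is read from that. The 46 listed genes include the 6 other ENPP genes, listed as family members and not as makers of the lipid. Of the 46, 32 had a region within 1 kb of a gene end and 30 were tested. Of these, 0 passed in limma, beside 0.0603% lower and 0% higher over all tested regions. At an unadjusted p under 0.05 there were 5 higher, beside 2.58%, and 0 lower, beside 10.8%. Groups did not overlap in 6 of the 30 with WM-1119 above, beside 3.76%, and in 0 with WM-1119 below, beside 13.2%. The median log2 change of the 30 was 0.10, against -0.47 over all tested regions, but these regions were of a higher level: their median mean was 49.2 CPM, against 4.02 CPM. On chromosomes other than 8 the median log2 change was 0.02 for regions averaging 20 to 50 CPM and 0.16 for those averaging 50 to 100 CPM, so the comparison with all regions moves with level. Without DMSO replicate 3, 7 of the 30 passed in limma: ENPP1 and ACP6 were lower, and GPAT4, AGPAT2, GNA13, GNAQ and ROCK2 higher. That fit called 17228 lower and 2409 higher of all 44763 tested regions, so nothing is read from the 7.

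Among the other ENPP genes only ENPP1, which makes extracellular pyrophosphate, had a region, with 8.34, 4.62 and 1.47 CPM with DMSO and 3.52, 2.5 and 1.34 CPM with WM-1119. Of the receptors, LPAR1 held 51.2 ± 9.98 and 51.1 ± 16.6 CPM (SD, n = 3 each) and LPAR2 17.2 ± 2.63 and 14.7 ± 1.72 CPM (SD, n = 3 each). LPAR5 had 1 region under the mean of 1 CPM. LPAR6 had none at its gene ends, but the region at its RefSeq start held 59.8, 39.3 and 19.8 CPM with DMSO and 24.0, 21.1 and 20.8 CPM with WM-1119, so DMSO replicate 3 was level with WM-1119. LPAR3 and LPAR4 had no region at either place.

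Of the phosphatases, PLPP1 was weak, with 2.78 to 4.62 CPM with DMSO and 4.88 to 11.9 CPM with WM-1119, and ACP6, which acts on lysophosphatidic acid in mitochondria, changed by -0.48 ± 0.46 (log2, SE). Neither PLPP2 nor PLPP3 had a region. Among other enzymes that make the lipid, GPAT4, a glycerol-3-phosphate acyltransferase gene also on chromosome 8, averaged 104 ± 23.6 CPM with DMSO and 144 ± 1.39 CPM with WM-1119 (SD, n = 3 each), which did not pass (limma adjusted p = 0.317). AGK, the acylglycerol kinase gene, had the lowest value of that list, -0.20 ± 0.31 (log2 change, SE). All 9 acyltransferase genes were tested, from LPCAT2 at -0.15 ± 0.25 to AGPAT2 at 0.37 ± 0.17 (log2 change, SE). All 12 signal carrier genes were tested, and 10 had values above 0. They ran from GNAI2, an inhibitory G protein subunit, at -0.11 ± 0.26 to ARHGEF12, an exchange factor for RhoA, at 0.63 ± 0.28 (log2 change, SE). Another GNAI2 region, at its RefSeq start, was at -0.52 ± 0.36 (log2 change, SE), or -0.14 against DMSO replicate 3 alone. By regions at the RefSeq start 9 signal carriers were tested, and 8 had values above 0. Against DMSO replicate 3 alone, the gene-end regions of ACP6, LPCAT2 and GNAI2 were at 0.72, 0.12 and 0.30 (log2 change), above 0. On the same basis GPAT4 was at 0.13, against 0.48 with all DMSO libraries, and AGPAT2 at 0.18. AGK was at -0.07 and ARHGEF12 at 0.69. RHOA itself held 161 ± 26.3 and 177 ± 7.81 CPM (SD, n = 3 each).

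Regions whose level followed the ENPP2 window sum across the 6 libraries were sought among the 14318 whose mean reached 10 CPM. The closest lay in DNAJB12, PAN3, LSM4, PUM3 and ZFYVE26, with Pearson correlations of 0.995 to 0.997. On chromosome 8 they lay in PDE7A, FDFT1, ADGRB1, ANGPT1 and PTK2B, at 0.985 to 0.994. In PAN3 the region held 25, 20.8 and 12.6 CPM with DMSO and 11.9, 7.70 and 7.32 CPM with WM-1119. A correlation above 0.9 was found for 5.50% of the 14318 regions and for 16.1% of the 781 on chromosome 8. The 6 points share depth and background as well as treatment, so the likeness is a description only.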

How the data were processed

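The deposited table has 1 column per H3K9ac library and 1 line per region. The authors name the deposited unit TPM, but the values are CPM: dividing by 1 constant per library gave whole reads for wide and narrow regions alike (100% of values up to 100 reads, within 0.02 reads). For WM-1119 replicate 2 recovered reads were not used. Named in the submitters' processing notes, without roles, are the build hg38 and bedtools, MACS2, SAMtools and Bowtie2. The sources used here do not give how regions were merged. The design assumed TPM, and CPM took the same test. Starts were read as counted from 0, and 1 was added. Genes came from the RefSeq table of GRCh38.p14; its genes on chromosome 8 were used without strand, and a gene's region was the strongest within 1 kb of either end.

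On log2(CPM + 1), which understates the change of weak regions, limma 3.58.1 (R 4.3.3, with trend and robust) was fitted to regions whose mean reached 1 CPM, with Benjamini-Hochberg adjustment over all of them. On data simulated with a dispersion of 0.05, 200 of 43831 regions were changed. Of the 2-fold changes 8% were recovered, of the 4-fold ones 84%, and 0 others were called. In the real libraries the chromosome 8 background ran from 5.24 to 20.5 CPM per kb. Calls over all regions ran from 0 to 19637 with 1 library left out. Whether the simulated rates hold for such libraries, or for the weak regions of the window, was not tested. Background, per library and chromosome, was the 10th percentile of CPM per length among regions wider than 500 bp and no wider than 1200 bp. edgeR 4.0.16 was an alternative on the recovered reads of 5 libraries. Tables and figures were made in Python 3.11.15 with matplotlib 3.10.9, scipy 1.17.1, numpy 2.4.6 and pandas 2.3.3. No pair of the 5 libraries with recovered reads was a copy (lowest chi-square over its degrees of freedom 1.55). Alternatives were other pseudocounts, filters and scalings, a replicate block and left-out libraries. Named were all 12 regions, neighbours by position, and per pathway list the highest and lowest log2 change and all LPAR and PLPP genes with a region. The window, lists and alternatives were chosen with earlier results of these data known; PAN3, DSCC1, DEPTOR, LPAR6 and RHOA were given values by choice among listed or ranked genes. No sequence is printed.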

Additional observations from a re-analysis of the deposited data

How the results depend on the processing

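All 12 ENPP2 regions were lower under every setting that tested them, except with DMSO replicates 1 and 2 both left out, where those at 119601197 and 119638672 were at 0.0137 and 0.18 (log2 change). The log2 change of the window sum ran from -1.83 to -1.13 with 1 library left out. It was -0.67 with median centring, -2.10 with background subtracted and -0.66 without DMSO replicates 1 and 2. Unlike the remaining CPM given above, the background-subtracted setting rescaled each library to a total of 1000000. The number of window regions called, 3 of 12 in the main fit, became 1 with pseudocounts of 0.1 or 5 or no filter (the strongest region each time). Over all tested regions these settings called 21, 19 and 23. The window number became 0 with means from 10 CPM up, quantile normalization, median centring, limma without trend and robust, and edgeR. In these, 4, 8, 5, 8 and 4 of the window were lower at an unadjusted p under 0.05. Over all tested regions 965 of 14323, then 1949, 557, 4903 and 1773 of 44763, were lower at that p. With 1 library left out the number of window regions called ran from 0 to 11. Over all regions the 27 calls became 2 with means from 10 CPM up, 1 with quantile normalization, 2 with median centring and 92 with background subtracted. They became 0 with limma without trend and robust (unadjusted p under 0.05: 33 higher, 4903 lower) and 0 with edgeR (350 and 1773). With 1 library left out they ran from 0 to 19637, the 19637 without DMSO replicate 3. The 0 pathway calls became 1 (GPAT4, higher) with background subtracted and ran from 0 to 7 with 1 library left out, the 7 without DMSO replicate 3. Regions tested were those whose mean over all 6 libraries reached 1 CPM also where libraries were left out. The cause of these changes was not tested. The replicate block called 496 regions and 6 of the 12. Same-numbered libraries had correlations of deviations of 0.22, 0.05 and 0.33, and unlike-numbered ones ran from -0.27 to 0.055. Not every library correlated best with its own number: DMSO replicate 2 was at 0.055 with WM-1119 replicate 1 and at 0.053 with WM-1119 replicate 2. The labels do not say that the numbers pair the samples, so the main fit did not pair them, and whether they do was not tested. In DMSO replicate 1 a count of 0 allows up to 4.17 CPM, so weak regions of the window could not be resolved there. For the sum, the model settings and edgeR were not run.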
